A study of Mus musculus with 16 samples.

Results

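The genes described here are the 45 mouse genes whose symbol begins with H2-, out of 57180 genes in the deposited count tables. They are some of the genes of the major histocompatibility complex (MHC). They comprise 32 class I genes, 12 class II genes and H2-Ke6, which is neither. All lay on chromosome 17 between positions 33974659 and 37483552 (GRCm38, GENCODE M21), together with 269 other genes of the tables. Other MHC genes, such as Tap1 and Tap2, are among the 269. They were measured by RNA sequencing of whole fetal lung at the embryonic stage E14.5 in 16 libraries, 4 in each of 4 groups. The groups were C57BL/6J (B6) controls, B6 with BMS493, A/J controls and A/J with BMS493. Control dams received corn oil and treated dams BMS493, an inverse agonist that acts on every retinoic acid receptor, as a daily oral dose of 3.75 µg per g that began at E9.5 and ended at E14.5. All fetuses were male according to the design text. The labels name no litter, so p-values measure the spread between libraries, which may share a dam. The drug reached the fetuses through the dam, and lungs were taken whole, with all their cell types.

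Class I molecules pair a heavy chain, encoded by an H2 gene, with beta-2 microglobulin and show peptides from inside the cell to CD8 T cells and natural killer cells. H2-K1 and H2-D1 encode the classical heavy chains, which nearly all nucleated cells make, while the Q, T and M genes encode nonclassical relatives with narrower roles. Class II molecules are made of an alpha and a beta chain (H2-Aa with H2-Ab1, H2-Ea with H2-Eb1) and are found mainly on macrophages, dendritic cells and B cells. H2-DMa with H2-DMb1 or H2-DMb2 exchanges the peptides of class II molecules, and H2-Oa with H2-Ob inhibits that exchange. B6 mice carry the b haplotype of this locus and A/J mice the a haplotype, which joins parts of the k and d haplotypes. The b haplotype makes no E alpha chain, because its gene carries a deletion. The reference genome is that of B6, so reads from A/J were placed on the sequence of another haplotype. Sequence differences and differences in transcript level cannot be told apart in the strain comparisons below. Fewer cells of a type and less RNA per cell cannot be told apart either in RNA from whole lung.

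The members share sequence with each other, and reads that fit more than 1 place are left out of the gene counts that STAR writes. The pairs H2-T22 with H2-T10 and H2-Q6 with H2-Q7 are shown because their members differed between the strains in opposite directions. Over 797 matched coding bases, H2-T22 and H2-T10 were 95.5% identical with 36 mismatches. Over 610 matched coding bases, H2-Q6 and H2-Q7 were 94.4% identical with 34 mismatches. Matched bases are coding parts of exons of equal length and at least 60 bases, so other coding exons were left out. The stretches below have 90 coding bases each, from GENCODE M21 transcripts on GRCm38, with the bases that differ within the pair in capitals. They are the 90 bases with the most differences within the matched exons, so they are not typical of the pair.
H2-T22 (exon 5, chr17:36040240-36040329, minus strand): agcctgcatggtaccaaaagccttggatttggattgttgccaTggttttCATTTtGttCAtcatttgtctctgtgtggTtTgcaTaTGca
H2-T10 (exon 6, chr17:36118951-36119040, minus strand): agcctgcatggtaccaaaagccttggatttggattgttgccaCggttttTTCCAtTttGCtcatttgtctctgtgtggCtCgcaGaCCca
H2-Q6 (exon 2, chr17:35425109-35425198, plus strand): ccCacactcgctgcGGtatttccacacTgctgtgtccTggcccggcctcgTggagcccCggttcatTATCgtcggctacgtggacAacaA
H2-Q7 (exon 2, chr17:35439453-35439542, plus strand): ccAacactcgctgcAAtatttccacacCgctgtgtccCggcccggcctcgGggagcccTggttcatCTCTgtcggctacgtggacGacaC
The 90 bases differed at 14 positions in the first pair and at 13 in the second. The first 42 bases of the H2-T22 and H2-T10 stretches were the same.

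Of all 50-base windows of the H2-T22 transcripts, 53.5% also occurred in another gene, and for H2-T10 the share was 50.4%. The shares were 36.4% for H2-Q4, 35.0% for H2-Q6, 29.4% for the pseudogene H2-T-ps and 26.5% for H2-Q7. H2-DMb1 and H2-DMb2 shared 22.7% and 25.9% of their windows with other genes, mostly with each other. The classical genes H2-D1 and H2-K1 shared 12.8% and 9.63%. H2-Ab1, H2-Eb1, H2-Eb2 and H2-Ea-ps shared none, and H2-Aa shared 0.514%. Values of the class I genes with large shares are uncertain, since the counts could be split between copies.

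**Figure D1:**
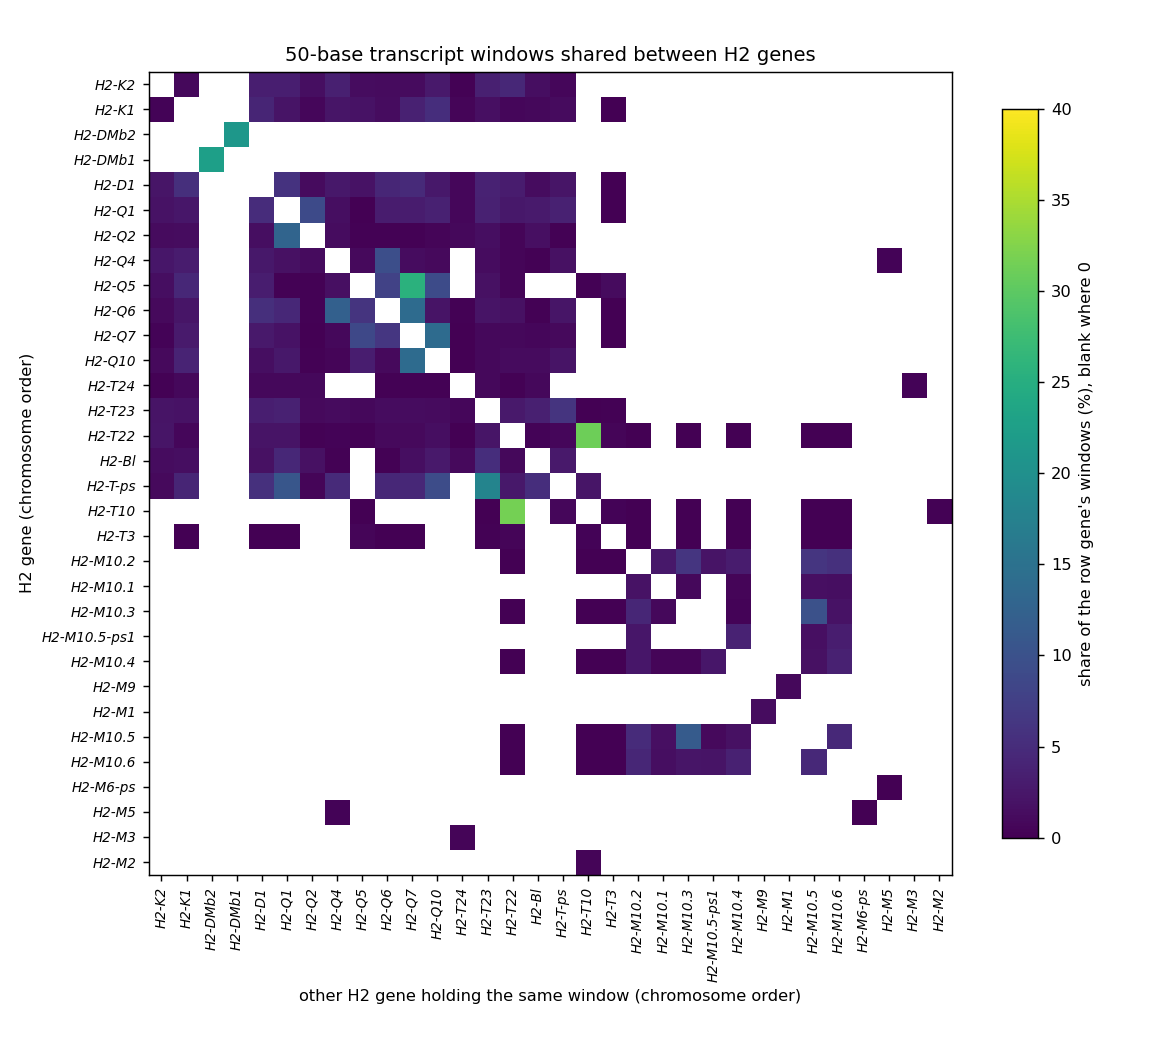
Share of the 50-base transcript windows of each H2 gene (rows) that also occur in another H2 gene (columns), in chromosome order, with blank cells where no window is shared. The brightest cells are H2-T22 with H2-T10, at 31.2% of the windows of H2-T22. The Q genes apart from H2-Q3 share windows with each other, with H2-K1 and H2-D1 and with T genes. H2-DMb1 and H2-DMb2 share only with each other.

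The promoters of the classical class I genes and of H2-Eb1 are shown because these genes had the lowest unadjusted p with BMS493 in B6, and because MHC promoters carry known elements. Enhancer A of classical class I promoters binds NF-kappa-B, the adjacent region II binds nuclear receptors including retinoid X receptor beta, and the Y box of class II promoters is an inverted CCAAT sequence. Each sequence gives the 250 bases before the RefSeq gene start on GRCm38.p6, read towards the gene. Capitals mark matches to GGGATTCCC, AGGTCA, GAAANNGAA or GATTGG on either strand, and none of these 4 strings contains another.
H2-K1 (chr17:34000348-34000597, minus strand): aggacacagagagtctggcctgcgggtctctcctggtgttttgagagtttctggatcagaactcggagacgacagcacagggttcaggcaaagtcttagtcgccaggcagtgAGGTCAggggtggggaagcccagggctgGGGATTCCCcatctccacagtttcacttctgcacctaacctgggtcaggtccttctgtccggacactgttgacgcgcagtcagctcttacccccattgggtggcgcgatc
H2-D1 (chr17:35262844-35263093, plus strand): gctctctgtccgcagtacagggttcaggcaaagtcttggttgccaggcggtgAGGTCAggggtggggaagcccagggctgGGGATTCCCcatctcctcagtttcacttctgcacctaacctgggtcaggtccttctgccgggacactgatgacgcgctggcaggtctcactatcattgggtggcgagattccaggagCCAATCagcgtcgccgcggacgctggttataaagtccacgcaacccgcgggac
H2-Eb1 (chr17:34305617-34305866, plus strand): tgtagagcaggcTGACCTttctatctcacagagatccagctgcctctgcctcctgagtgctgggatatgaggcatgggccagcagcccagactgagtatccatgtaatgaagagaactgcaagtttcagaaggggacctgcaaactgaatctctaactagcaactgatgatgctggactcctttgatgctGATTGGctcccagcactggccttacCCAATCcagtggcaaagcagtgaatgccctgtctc
RefSeq promoters were matched for 32 of the 45 members, 23 of them class I and 8 class II. GGGATTCCC, a core of enhancer A, occurred in 4 class I promoters (H2-K1, H2-D1, H2-Q6 and H2-Q7), in no class II promoter and in 0.311% of the 27025 promoters of all genes. AGGTCA occurred in 7 class I promoters, 2 class II promoters and 13.8% of all promoters. GAAANNGAA, part of the interferon response element, occurred in 2 class I promoters (H2-T22 and H2-T23), in no class II promoter and in 7.16% of all promoters. GATTGG, an inverted CCAAT with its flank, occurred in 16 class I promoters, 7 class II promoters and 15.1% of all promoters. These are matches of letters in the B6 sequence, and no A/J sequence was used here.

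Between 15207539 and 24146224 fragments per library were assigned to genes, and the H2 genes held between 0.00385% and 0.01398% of them. Multimapping fragments made up 3.16% ± 0.156 (SD, n = 8) of the B6 libraries and 3.90% ± 0.134 (SD, n = 8) of the A/J libraries. The 7 lung marker genes checked were present in every library, with a sum of 1270 to 2220 counts scaled to library size (CPM). B6 BMS493 replicate 3 was the library most unlike its own group. Its median difference from the other 3, as a root mean square over log2 CPM of all genes, was 0.523, and the other 15 libraries lay between 0.428 and 0.494. Results on B6 with BMS493 are given with and without it where it mattered.

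Of the 45 members, 33 had at least 1 count and 12 had none. Those without a count were 11 class I genes, among them 10 of the 14 M genes, and the class II pseudogene H2-Pa. A filter on low counts left 20 members for testing, 15 of class I and 5 of class II (H2-Aa, H2-Ab1, H2-Eb1, H2-DMa and H2-DMb1). When the filter was applied to each strain alone, 10 members passed in both strains, 9 passed in B6 only and H2-Q6 passed in A/J only. The 9 were H2-Aa, H2-Ab1, H2-DMb1, H2-Eb1, H2-M5, H2-Q2, H2-T-ps, H2-T23 and H2-T3. Such genes entered the test through the strain in which they were high, so a count over the 20 tested genes does not stand for all members. The 13 members with counts that were not tested held between 1 and 112 counts over all 16 libraries.

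**Figure D2:**
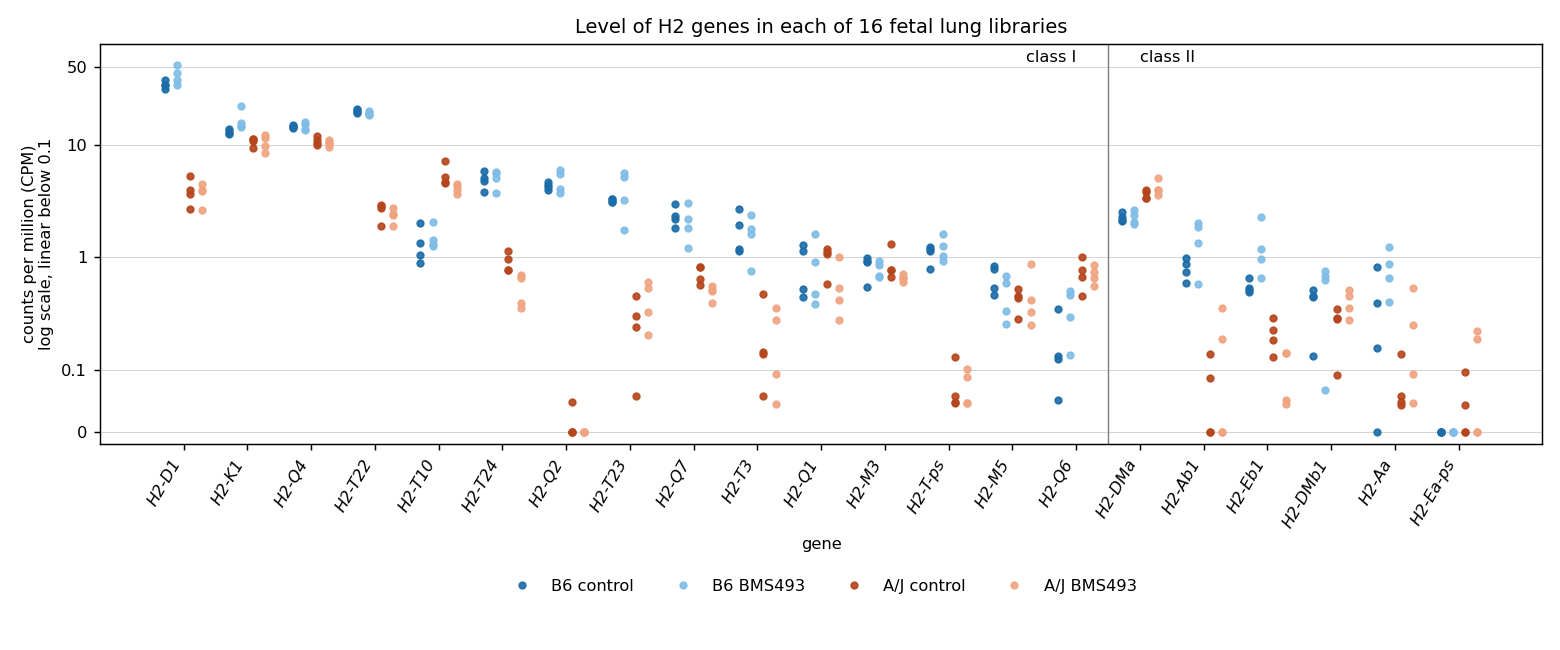
Level in CPM (log scale, linear below 0.1) of the 20 tested H2 genes and H2-Ea-ps, with 1 point per library and 4 libraries in each of the 4 groups. H2-D1, H2-T22 and H2-Q2 of A/J lie far below B6, H2-T10 and H2-DMa of A/J lie above B6, and BMS493 and control points of the same strain mostly mix.

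The first comparison concerned the strains, since the study set A/J beside B6. Fewer fragments were counted for the class I genes in A/J than in B6 libraries. The gap in CPM was widest for H2-D1 and H2-T22, H2-K1 and H2-Q4 were closer in both strains, and H2-T10 and H2-Q6 were higher in A/J controls. The summed class I level was 105.1 ± 3.71 CPM (SD, n = 4) in B6 controls and 39.8 ± 3.17 in A/J controls. With BMS493 the sums were 117.2 ± 10.97 in B6 and 36.0 ± 2.87 in A/J (SD, n = 4 each). The groups did not overlap between strains. The class I sum was thus 2.64-fold higher in B6 controls and 3.26-fold higher in B6 with BMS493. H2-D1 made up 32.9% of the class I sum in B6 controls and 9.92% in A/J controls, yet without H2-D1 the remaining sum was still 1.97-fold higher in B6 controls.

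H2-D1, a classical heavy chain gene, was the most abundant H2 gene of B6 lung, at 13.4 CPM per kilobase of exon in controls. Its level was 31.6, 38.0, 34.1 and 34.6 CPM in the B6 controls and 5.35, 4.03, 3.69 and 2.72 CPM in the A/J controls. In the BMS493 groups it was 38.5, 51.5, 44.2 and 34.3 CPM in B6 and 3.90, 4.49, 2.65 and 4.03 CPM in A/J. Every B6 library lay above every A/J library by a wide margin. The log2 fold change of A/J over B6 was -3.12 (SE 0.16, adjusted p = 9.28e-13) in controls and -3.48 (SE 0.16, adjusted p = 1.22e-13) with BMS493, from edgeR's quasi-likelihood test adjusted over all 17276 genes tested.

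H2-K1, the other classical gene, differed far less. Its level was 13.5, 12.97, 13.995 and 12.6 CPM in B6 controls and 10.9, 11.4, 11.4 and 9.47 CPM in A/J controls. After BMS493 it was 14.49, 22.2, 14.95 and 15.8 CPM in B6 and 11.5, 12.4, 9.91 and 8.56 CPM in A/J. The strains did not overlap in either pair of groups, though the gap was small in controls. The log2 fold change of A/J over B6 was -0.30 (SE 0.13, adjusted p = 0.139) in controls, which is not past the threshold of 0.05, and -0.67 (SE 0.13, adjusted p = 0.000567) with BMS493. The difference between these effects was -0.38 (SE 0.19, unadjusted p = 0.0562, adjusted p = 0.999), so they are not shown to differ. Per kilobase, H2-K1 followed H2-Q4 as the second most abundant member in A/J controls, at 3.67 CPM per kilobase, while H2-D1 stood at 1.53.

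Of the 10 members that passed the filter in each strain alone, 7 were called in controls (adjusted p under 0.05), with 2 higher and 5 lower in A/J. Over all 20 tested members the calls numbered 13, beside 16.9% of all genes tested. Of these 3 were higher and 10 lower in A/J, where 7.04% and 9.84% of all genes were called in these directions. Of the 106 other genes tested from the same interval of chromosome 17, calls were made for 20 (18.9%), of which 4 were higher and 16 lower. In the BMS493 groups 8 of the 10 and 14 of the 20 were called, beside 20.0% of all genes. Of the 14, 2 were higher and 12 lower in A/J, beside 7.93% and 12% of all genes. Of the other genes of the interval 32 of 106 were called there (30.2%), and 21 without B6 BMS493 replicate 2. Calls in both comparisons with the same direction were made for 12 members, beside 12.1% of all genes. Of the 12, 10 were lower and 2 higher in A/J. Of the 10 members that passed the filter in each strain alone, 7 were called in both, 5 lower and 2 higher. The strains did not overlap for 15 of the 20 members in either comparison, beside 24.3% of all genes in controls and 19.5% with BMS493. Among the 10 members that passed the filter in each strain alone, the strains did not overlap for 8 in each comparison. Over the 10 members that passed the filter in each strain alone, the median log2 fold change was -0.36 in controls and -0.64 with BMS493, beside 0.01 and 0.00 over all genes. With each library of the BMS493 groups left out in turn, B6 replicate 3 included, 14 or 15 members were called.

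**Figure D3:**
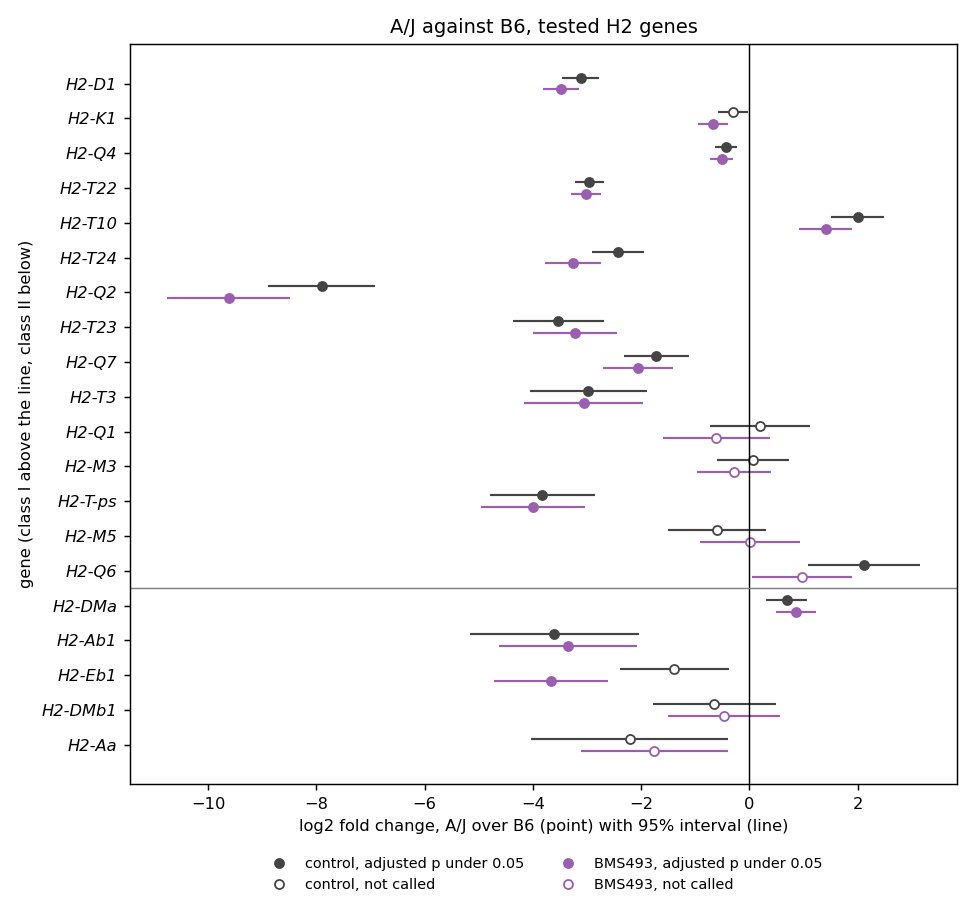
Log2 fold change of A/J over B6 (points) with 95% intervals (lines) for the 20 tested H2 genes, in control and in BMS493 lungs, filled where the adjusted p is under 0.05. Most class I genes lie left of 0, and H2-Q6 (2.12 in controls), H2-T10 (2.00) and H2-DMa (0.69) lie to the right. H2-Q4 (-0.43 in controls, -0.51 with BMS493) and H2-K1 (-0.30 and -0.67) lie nearer to 0 than H2-D1.

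The Q genes encode nonclassical class I chains, among them the Qa-2 antigen of H2-Q7. H2-Q2 had the widest gap of the tested members as a ratio. It had 4.23, 4.71, 3.96 and 4.39 CPM in B6 controls and 6.01, 3.76, 5.54 and 4.08 CPM in B6 with BMS493. In A/J a single count was found among the 4 control libraries, and none among the 4 with BMS493. H2-Q2 thus held 343 counts in B6 controls against 1 in A/J controls, a ratio of 361.9 with a Clopper-Pearson 95% interval of 64.52 to 14330 that covers counting error only. In the BMS493 groups the ratio was 362 counts to 0, at least 136.2-fold lower in A/J when 0 over the group is read as 3 counts. For H2-Q2 the adjusted p reached 1.74e-11 in the control comparison and 6.40e-12 in the BMS493 groups. Of its 50-base windows 16.1% were shared, mostly with H2-Q1.

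H2-Q4, which encodes the Qb-1 antigen, was the Q gene with the highest level and differed little. It had 14.54, 15.1, 14.4 and 14.9 CPM in B6 controls and 11.1, 10.5, 12.2 and 9.98 CPM in A/J controls. Treated libraries had 15.5, 16.2, 13.9 and 13.8 CPM in B6 and 11.04, 10.6, 9.58 and 10.4 CPM in A/J. The strains did not overlap in either comparison. Its log2 fold change of A/J over B6 was -0.43 (SE 0.10, adjusted p = 0.00346) in controls and -0.51 (SE 0.10, adjusted p = 0.000502) with BMS493. The H2-Q4 value depends on the strand column, because the stranded columns together hold 1.59 times the counts of the column without strand, in which reads over genes on both strands are dropped. With the stranded columns summed the log2 fold change in controls was -0.25 (adjusted p = 0.0411).

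H2-Q7 and H2-Q6 differed in opposite directions. H2-Q7 had 2.22, 2.35, 3.02 and 1.84 CPM in B6 controls and 0.820, 0.822, 0.638 and 0.567 CPM in A/J controls. After BMS493 it had 2.22, 1.82, 3.07 and 1.21 CPM in B6 and 0.557, 0.396, 0.512 and 0.504 CPM in A/J. H2-Q7 was lower in A/J in both comparisons, by a log2 fold change of -1.72 (adjusted p = 0.000140) in controls and -2.06 (adjusted p = 2.62e-05) with BMS493. H2-Q6 was higher in A/J controls at 2.12 (SE 0.50, adjusted p = 0.00366), from 0.0516 to 0.346 CPM in B6 and 0.454 to 1.00 CPM in A/J. Without B6 control replicate 3 the H2-Q6 value was 2.78. In treated lungs it stood at 0.98 (SE 0.45, adjusted p = 0.133), and the difference between the effects had an adjusted p of 0.999. The sum of both genes was 2.52 ± 0.600 CPM in B6 controls and 1.44 ± 0.285 in A/J controls (SD, n = 4 each), which did not overlap. Where A/J reads of each gene were counted was not tested.

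H2-T22 and H2-T10 also differed in opposite directions, at higher counts. H2-T22 encodes a class Ib chain seen by gamma delta T cells, and H2-T10 is its close copy. H2-T22 had 20.6, 21.1, 19.7 and 19.4 CPM in B6 controls and 2.85, 1.90, 2.91 and 2.78 CPM in A/J controls. In treated lungs it had 20.3, 18.4, 19.4 and 18.8 CPM in B6 and 2.74, 2.38, 2.42 and 1.91 CPM in A/J. No A/J library reached 3 CPM, and no B6 library fell under 18 CPM. The log2 fold change of A/J over B6 was -2.96 (SE 0.13, adjusted p = 2.91e-15) in controls and -3.02 (SE 0.13, adjusted p = 2.22e-15) with BMS493.

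H2-T10 went the other way. It had 1.34, 2.02, 0.890 and 1.049 CPM in B6 controls and 4.68, 4.63, 7.29 and 5.16 CPM in A/J controls. Treated libraries had 1.31, 2.07, 1.27 and 1.44 CPM in B6 and 4.50, 3.70, 3.95 and 4.33 CPM in A/J. All A/J libraries lay above all B6 libraries. The log2 fold change was 2.00 (SE 0.24, adjusted p = 6.05e-07) in controls and 1.41 (SE 0.24, adjusted p = 9.40e-05) with BMS493. Added together, H2-T22 and H2-T10 had 21.5 ± 1.26 CPM in B6 controls and 8.05 ± 1.55 in A/J controls, and 20.8 ± 0.586 and 6.48 ± 0.518 with BMS493 (SD, n = 4 each). The higher H2-T10 in A/J was therefore smaller than the lower H2-T22, by CPM, and the sum was 2.67-fold higher in B6 controls.

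**Figure D4:**
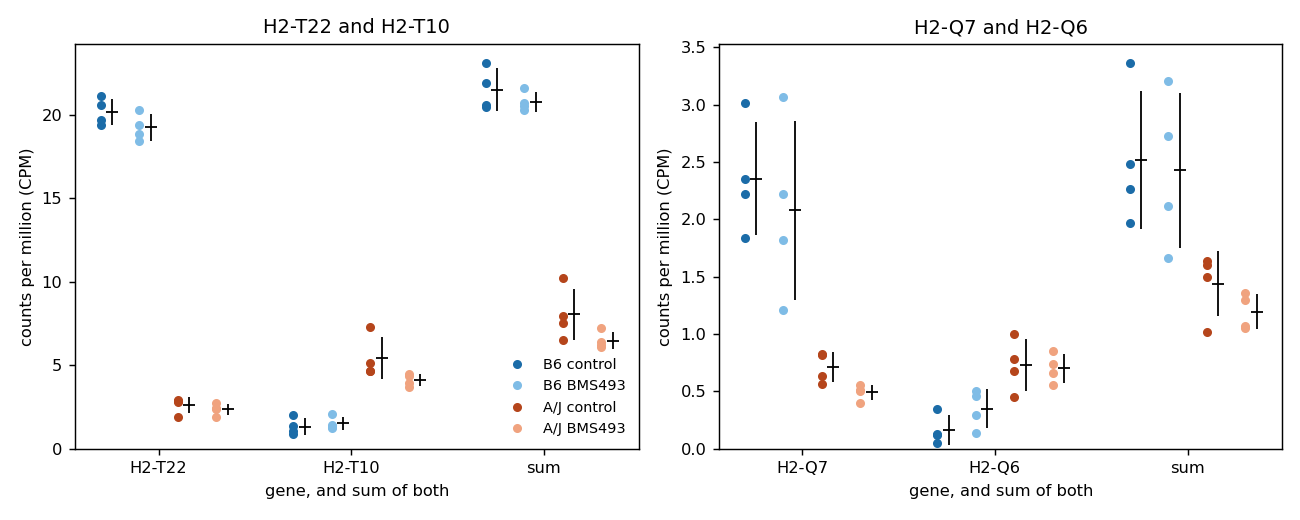
CPM of H2-T22, H2-T10 and their sum (left), and of H2-Q7, H2-Q6 and their sum (right), with 1 point per library and the mean with its SD in black for each of the 4 groups. The second gene of each pair is higher in A/J controls and the first lower, and both sums stay lower in A/J than in B6.

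H2-T23, H2-T24, H2-T3 and the pseudogene H2-T-ps were all lower in A/J in both comparisons. H2-T23 encodes Qa-1, which shows leader peptides of other class I chains to natural killer cell receptors. It had 3.30, 3.10, 3.31 and 3.15 CPM in B6 controls and 0.241, 0.303, 0.455 and 0.0567 CPM in A/J controls. After BMS493 it had 1.77, 5.20, 5.61 and 3.27 CPM in B6 and 0.325, 0.528, 0.605 and 0.201 CPM in A/J. The B6 BMS493 libraries of H2-T23 were far more spread than the B6 controls, and none overlapped with A/J. Its log2 fold change of A/J over B6 was -3.53 (SE 0.40, adjusted p = 3.65e-07) in controls and -3.22 (SE 0.37, adjusted p = 4.42e-07) with BMS493.

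H2-T24 had 5.16, 4.79, 5.93 and 3.80 CPM in B6 controls and 0.772, 0.779, 1.14 and 0.964 CPM in A/J controls. In treated lungs it had 5.15, 5.75, 3.74 and 5.63 CPM in B6 and 0.649, 0.396, 0.698 and 0.353 CPM in A/J. Only 3.17% of its windows were shared with another gene. Its log2 fold change of A/J over B6 was -2.43 (SE 0.23, adjusted p = 1.89e-08) in controls and -3.26 (SE 0.25, adjusted p = 2.90e-10) with BMS493. H2-T3, which encodes the thymus leukemia antigen, stood at -2.98 (adjusted p = 0.000182) in controls and -3.06 (adjusted p = 0.000147) with BMS493, and at -3.82 in controls without A/J control replicate 2. H2-T-ps stood at -3.83 (adjusted p = 1.17e-06) and -3.99 (adjusted p = 5.22e-07).

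Most M genes, at the end of the locus, had few or no counts. H2-M3, which shows formylated peptides, stood at 0.585 CPM per kilobase in B6 controls and 0.614 in A/J controls. H2-M3 and H2-M5 were the only M genes tested, and neither differed by strain past the threshold (adjusted p of 0.926 and 0.396 in controls). The 95% interval of the log2 fold change of A/J over B6 controls ran from -0.60 to 0.73 for H2-M3. H2-M10.2, a member of a family known from vomeronasal neurons, had 76 counts in all, and H2-M6-ps had 13. The other 10 M genes had no count in any library.

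Class II genes were low in every group. H2-Ab1 was lower in A/J in both comparisons, H2-Eb1 was lower with BMS493, and H2-DMa was higher in both. The 5 A and E genes summed to 1.71 ± 0.469 CPM in B6 controls and 0.380 ± 0.105 in A/J controls (SD, n = 4 each). The 5 DM and O genes summed to 3.20 ± 0.303 CPM in B6 controls and 4.24 ± 0.349 in A/J controls. H2-DMa alone carried the higher A/J sum, with a mean of 2.28 CPM in B6 controls and 3.68 in A/J controls, while the means of H2-DMb1, H2-DMb2, H2-Oa and H2-Ob were lower in A/J controls. Neither sum overlapped between strains. The class II total of 4.91 ± 0.295 CPM in B6 controls and 4.63 ± 0.343 in A/J controls did overlap.

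H2-Ab1, the A beta chain, had 0.877, 0.744, 0.593 and 0.984 CPM in B6 controls and 0, 0.0866, 0.137 and 0 CPM in A/J controls. Treated libraries had 1.87, 2.03, 1.33 and 0.574 CPM in B6 and 0, 0.352, 0.186 and 0 CPM in A/J. These levels stood for 62 counts in B6 controls and 5 in A/J controls. H2-Ab1 was lower in A/J in both comparisons, at -3.60 on the log2 scale (SE 0.76, adjusted p = 0.00129) in controls and -3.35 (SE 0.62, adjusted p = 0.000300) with BMS493. For H2-Ab1 these were -4.37 without A/J control replicate 3 and -4.40 without A/J BMS493 replicate 2.

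H2-Aa, the A alpha chain, had 0.155, 0.826, 0 and 0.393 CPM in B6 controls and 0.0482, 0.0433, 0.137 and 0.0567 CPM in A/J controls. After BMS493 it had 0.656, 1.23, 0.868 and 0.402 CPM in B6 and 0.0464, 0.528, 0.0930 and 0.252 CPM in A/J. The strains overlapped in both comparisons. The log2 fold change of A/J over B6 for H2-Aa was -2.21 (SE 0.88, adjusted p = 0.0899) in controls and -1.75 (SE 0.66, adjusted p = 0.0627) with BMS493. Neither passed, but without B6 control replicate 3, which had no H2-Aa count, the first passed at an adjusted p of 0.0258. Without B6 control replicate 2, which held 20 of the 29 H2-Aa counts of B6 controls, it was -1.17 (adjusted p = 0.509).

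H2-Eb1, the E beta chain, had 0.516, 0.537, 0.495 and 0.656 CPM in B6 controls and 0.289, 0.130, 0.182 and 0.227 CPM in A/J controls. In treated lungs it had 0.656, 1.18, 2.27 and 0.976 CPM in B6 and 0.139, 0.0440, 0.140 and 0.0504 CPM in A/J. No B6 library overlapped with A/J. Its log2 fold change of A/J over B6 was -1.39 (SE 0.49, adjusted p = 0.0512) in controls and -3.66 (SE 0.51, adjusted p = 7.95e-06) with BMS493. The difference between these effects was -2.27 (SE 0.75, unadjusted p = 0.00582, adjusted p = 0.999), and -1.86 without B6 BMS493 replicate 3.

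H2-Ea-ps, the E alpha gene, had no count in any of the 8 B6 libraries. In A/J it had 2, 1, 0 and 0 counts in controls and 4, 5, 0 and 0 counts with BMS493, so all 12 counts came from replicates 1 and 2. These replicates carry library numbers 1 to 8 in every group, and the labels do not say whether those libraries were a batch. No fold is given, since single libraries decide it. H2-Eb2 had 1 count in B6 control replicate 1, B6 BMS493 replicate 1 and A/J control replicate 3, and none in the other 13 libraries.

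H2-DMa, which encodes the alpha chain of the peptide exchange factor, was the class II gene with the highest level. It had 2.53, 2.31, 2.13 and 2.16 CPM in B6 controls and 3.86, 4.03, 3.42 and 3.40 CPM in A/J controls. Treated libraries had 2.07, 2.41, 2.00 and 2.64 CPM in B6 and 5.15, 3.56, 4.00 and 3.98 CPM in A/J. All A/J libraries lay above all B6 libraries. The log2 fold change of A/J over B6 was 0.69 (SE 0.18, adjusted p = 0.00894) in controls and 0.87 (SE 0.18, adjusted p = 0.00102) with BMS493. Of its windows 8.43% were shared, all with its neighbour Brd2.

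The beta chains and the inhibitor were lower still. H2-DMb1 had 0.516, 0.454, 0.445 and 0.131 CPM in B6 controls and 0.289, 0.346, 0.0911 and 0.284 CPM in A/J controls. With the drug it had 0.757, 0.634, 0.0667 and 0.689 CPM in B6 and 0.278, 0.352, 0.512 and 0.453 CPM in A/J, and all groups overlapped. It was not called between strains (adjusted p of 0.482 in controls and 0.569 with BMS493). H2-DMb2 had 3, 10, 13 and 7 counts in B6 controls, 10, 14, 4 and 4 in treated B6 lungs, 6, 5, 8 and 2 in A/J controls and 3, 10, 9 and 4 in treated A/J lungs. H2-Oa had 0, 1, 7 and 0 counts, then 0, 2, 1 and 1, then 1, 0, 2 and 2, and last 3, 2, 4 and 4 counts in the same order of groups. H2-Ob had 1 count in B6 control replicate 4, and 1, 1, 2 and 0 counts in treated B6 lungs, with none in A/J. At these counts no difference in H2-DMb2, H2-Oa or H2-Ob was tested. The stranded columns of H2-Oa and H2-Ob held 1.73 and 1.40 times as many counts.

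The second question of the design was whether BMS493 changed gene expression within each strain. No H2 gene was called in either strain. Of the 20 tested members 0 passed in B6, beside 0.423% of all genes, and 0 passed in A/J, beside 0.486%. At an unadjusted p under 0.05 there were 3 in B6 (H2-Eb1, H2-K1 and H2-D1), where 9.11% of all genes had such a p, and 1 in A/J (H2-T24), where 6.23% had. DESeq2 also called 0 members in each strain. For the difference of the BMS493 effect between strains 0 members passed with edgeR and with DESeq2, beside 0.00579% of all genes, and 2 (H2-Eb1 and H2-T24) had an unadjusted p under 0.05, as did 3.68% of all genes. BMS493 and control libraries did not overlap for 2 members in B6 and 3 in A/J, beside 4.71% and 4.87% of all genes.

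**Figure D5:**
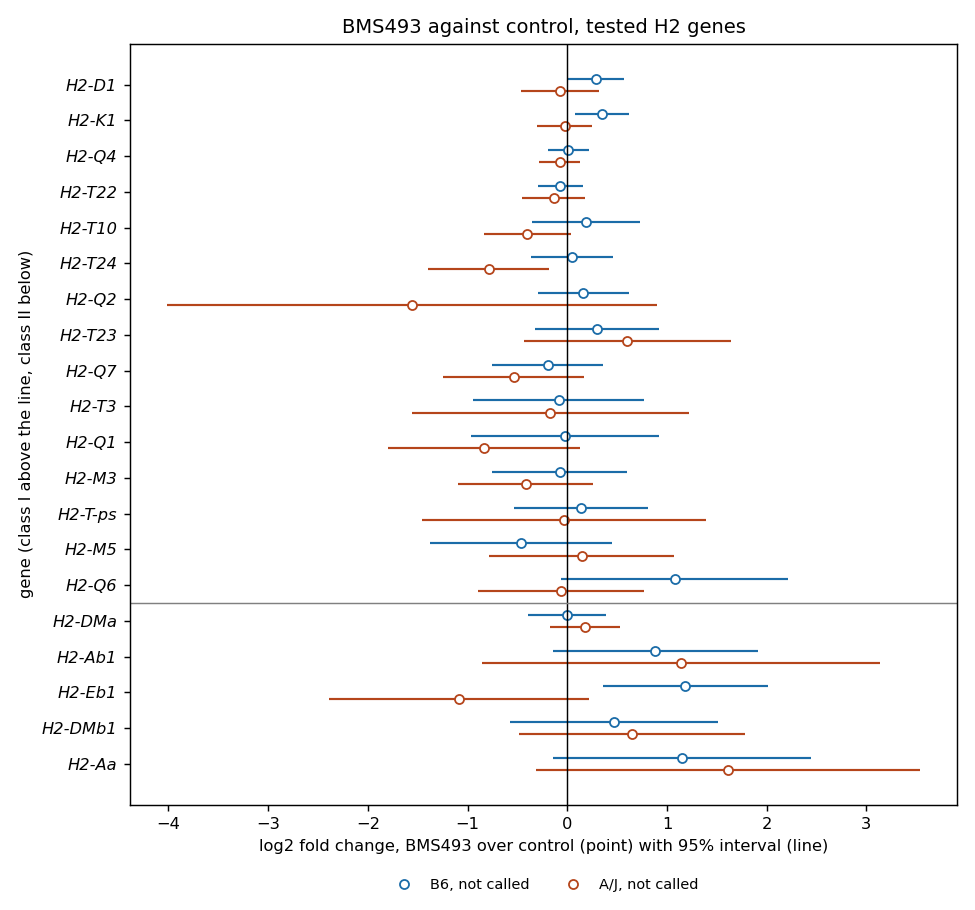
Log2 fold change of BMS493 over control (points) with 95% intervals (lines) for the 20 tested H2 genes, in B6 and in A/J, all open because none had an adjusted p under 0.05. The intervals are narrow for H2-Q4, H2-T22 and H2-K1 and span more than 2 log2 units for H2-Aa, while 4 of the 5 class II points of B6 lie right of 0 and that of H2-DMa lies at 0.

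The class I genes with the most counts had narrow intervals around small differences. In B6 the log2 fold change of BMS493 over control was 0.35 (95% interval 0.08 to 0.62, adjusted p = 0.363) for H2-K1. For H2-K1 without B6 BMS493 replicate 2, the library at 22.2 CPM, it was 0.19 (adjusted p = 0.707). H2-D1 stood at 0.29 (interval 0.01 to 0.57, adjusted p = 0.533), and at 0.17 without the same library. H2-Q4 stood at 0.01 (interval -0.19 to 0.22) and H2-T22 at -0.07 (interval -0.30 to 0.16). In A/J the values were -0.02 (interval -0.30 to 0.25) for H2-K1, -0.08 (interval -0.47 to 0.31) for H2-D1, -0.08 (interval -0.28 to 0.13) for H2-Q4 and -0.13 (interval -0.45 to 0.18) for H2-T22. For H2-K1, H2-Q4 and H2-T22 in both strains, a 2-fold difference in either direction lies outside these intervals. H2-T24 in A/J stood at -0.79 (interval -1.40 to -0.18, adjusted p = 0.515), with no overlap between the groups. The class I sum with BMS493 was 1.12-fold that of controls in B6 and 0.904-fold in A/J, and the groups overlapped in both strains.

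The class II genes other than H2-DMa had wide intervals. In B6 the log2 fold change was positive for 4 of the 5 tested class II genes, and all 4 had passed the filter only through B6. For H2-DMa it was 0.00 (interval -0.39 to 0.39) and changed sign under 6 of 16 alternatives. H2-Eb1 had the largest, at 1.18 (SE 0.40, interval 0.36 to 2.01, adjusted p = 0.301), and its BMS493 libraries all lay above the controls, the lowest of them by less than the rounding of 0.656 CPM. For H2-Eb1 without B6 BMS493 replicate 3, its highest library at 2.27 CPM, it was 0.78 (adjusted p = 0.620). H2-Aa stood at 1.15 (interval -0.14 to 2.45), H2-Ab1 at 0.88 (interval -0.14 to 1.91), and H2-DMb1 at 0.47. Without B6 control replicate 2 H2-Aa stood at 2.20. In A/J H2-Aa stood at 1.61 (interval -0.31 to 3.54), H2-Ab1 at 1.14, H2-DMb1 at 0.65, H2-DMa at 0.18 (interval -0.17 to 0.53) and H2-Eb1 at -1.08. Without A/J BMS493 replicate 2, H2-Aa stood at 0.78 and H2-Ab1 at 0.08, and without A/J control replicate 3 H2-Ab1 stood at 1.91. For H2-Aa and H2-Ab1 in both strains, a 2-fold higher level with BMS493 lies inside the intervals. For H2-DMa in both strains, a 2-fold difference in either direction lies outside them.

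Summed over all 12 class II genes the BMS493 libraries lay above the controls in both strains. The sums were 4.80, 5.33, 4.65 and 4.85 CPM in B6 controls and 6.61, 8.20, 7.01 and 5.57 CPM in B6 with BMS493. They were 4.92, 4.89, 4.51 and 4.20 CPM in A/J controls and 6.08, 5.59, 5.53 and 5.14 CPM in A/J with BMS493. The groups did not overlap in either strain, at 1.40-fold in B6 and 1.21-fold in A/J by the means, and at 1.39-fold in B6 without replicate 3. In B6 the A and E genes averaged 1.71 CPM in controls and 3.52 with BMS493, and the DM and O genes 3.20 and 3.33 CPM. In A/J the A and E genes averaged 0.380 and 0.559 CPM, and the DM and O genes 4.24 and 5.03 CPM. The A/J value of 0.559 rests on BMS493 replicate 2, without which it was 0.364 CPM, below the controls. Each of these partial sums overlapped between BMS493 and control, and no test was made on the sums.

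The genes that serve H2 molecules were taken as lists of 44 genes, 41 of them tested. They hold the chaperones and peptide suppliers of class I, the invariant chain and proteases of class II, the MHC transactivators and interferon signalling genes. None was called with BMS493 in B6, in A/J or in the difference, with edgeR or DESeq2. In B6 4 of the 41 had an unadjusted p under 0.05 (Tap1, Tap2, Ciita and Irf2), a share near the 9.11% of all genes. In A/J 4 of the 41 also had one (Rfxap, Socs1, Irf8 and Irf2), beside 6.23% of all genes, with a negative log2 fold change for Irf8 and positive ones for the rest. These genes were named after their values were seen. Between strains 7 were called in controls and 11 with BMS493, against background shares of 16.9% and 20.0%. All of those called from the class I and class II processing lists were lower in A/J, namely 3 of 14 and 2 of 5 genes in controls. Tap1, Tap2, Psmb8 and Psmb9 lie in the H2 interval and were also counted among its other genes. Without B6 BMS493 replicate 1 the 11 became 19.

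B2m, which encodes beta-2 microglobulin, had 86.9, 91.4, 90.3 and 80.4 CPM in B6 controls and 59.2, 58.3, 54.6 and 63.8 CPM in A/J controls, without overlap. B2m in A/J over B6 stood at -0.57 on the log2 scale (SE 0.14, adjusted p = 0.0111) in controls, much less than that of H2-D1. With BMS493 B2m stood at 82.7, 105, 51.9 and 79.7 CPM in B6, where replicate 3 was the low library, and at 52.2, 59.1, 60.2 and 50.1 CPM in A/J (log2 fold change -0.53, adjusted p = 0.0148). The strains overlapped there through that low library. Tap1, part of the peptide transporter, had 4.85, 4.87, 6.48 and 5.38 CPM in B6 controls and 2.75, 3.72, 3.05 and 2.95 CPM in A/J controls. In treated lungs Tap1 had 5.50, 7.82, 7.81 and 6.37 CPM in B6 and 3.20, 3.17, 2.56 and 3.32 CPM in A/J. For Tap1 the strains did not overlap in either comparison. Tap1 in A/J over B6 stood at -0.78 (adjusted p = 0.00181) in controls and -1.17 (adjusted p = 1.38e-05) with BMS493. Nlrc5, the class I transactivator, was too low to test, with 5, 6, 7 and 3 counts in B6 controls and 10, 1, 6 and 5 in treated B6 lungs. Nlrc5 had 0, 1, 3 and 4 counts in A/J controls and 0, 0, 3 and 0 in treated A/J lungs.

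Cd74, the invariant chain that escorts class II molecules, had 2.47, 2.52, 3.02 and 2.49 CPM in B6 controls and 1.01, 1.08, 1.23 and 0.737 CPM in A/J controls. In treated lungs Cd74 had 2.17, 3.09, 4.20 and 3.27 CPM in B6 and 0.557, 1.496, 0.837 and 1.06 CPM in A/J. Cd74 in A/J over B6 stood at -1.36 on the log2 scale (SE 0.27, adjusted p = 0.000870) in controls and -1.67 (SE 0.27, adjusted p = 6.67e-05) with BMS493. It was thus lower in A/J along with H2-Ab1. Ciita, the class II transactivator, had 0.155, 0.165, 0.742 and 0.459 CPM in B6 controls and 0.555, 1.14, 0.934 and 0.632 CPM in B6 with BMS493. Ciita with BMS493 over control in B6 stood at 1.13 (SE 0.46, unadjusted p = 0.0222, adjusted p = 0.446), with overlapping groups. In A/J Ciita had 0.338, 0.519, 0.273 and 0.340 CPM in controls and 0.510, 0.352, 0.326 and 0.252 CPM with BMS493, and stood at -0.03. Between strains Ciita was at -0.01 in controls and -1.17 (adjusted p = 0.0724) with BMS493.

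Markers of the cells that could carry class II were read beside these values. The macrophage list of 8 genes summed to 135.7 to 156.3 CPM in B6 controls and 117.7 to 159.7 CPM in treated B6 lungs. In A/J it ran from 141.0 to 155.2 CPM without and from 136.5 to 150.2 CPM with the drug, so the sums of all groups overlapped. The sum joins genes that differed by strain in opposite directions. Of the 8 macrophage genes 1 was called higher and 1 lower in A/J controls, where Mrc1 averaged 54.3 CPM beside 34.2 in B6, and C1qb 9.49 CPM beside 12.4. With BMS493 2 were called higher (Mrc1 and Cx3cr1) and 2 lower (C1qb and Lyz2). Ptprc, the leucocyte gene for CD45, had 3.54 to 4.60 CPM in B6 controls and 3.33 to 7.12 CPM in treated B6 lungs. Its A/J values were 2.36 to 3.72 CPM without and 1.94 to 3.34 CPM with the drug. Ptprc was called lower in A/J with BMS493, at a log2 fold change of -0.92, and not in controls. Of the 5 B cell genes only Cd79b was tested, and their sum was 1.36 to 1.75 CPM in B6 controls and 0.397 to 1.41 in A/J controls. Cd79b was called lower in A/J with BMS493. The dendritic cell list summed to 24.3 to 28.1 CPM in B6 controls and 31.2 to 37.3 in A/J controls, and most of that sum was Zbtb46, with means of 22.7 CPM in B6 controls and 31.7 in A/J controls. The means of the list genes Clec9a, Flt3 and Itgax were lower in A/J controls, at 1.43, 0.0364 and 0.259 CPM beside 2.43, 0.236 and 0.330 in B6. Zbtb46 was called higher in A/J in both comparisons, and Clec9a was called lower with BMS493. In treated lungs the means of Flt3, Itgax and Cd209a, which were not tested, were not lower in A/J than in B6. Xcr1 had no count in any library. The T and natural killer cell list reached at most 0.211 CPM, with Cd3e and Ncr1 at 0 throughout. Ifng and Ifnb1, which encode interferons that raise MHC expression, were at 0 in all 16 libraries. Endothelial and epithelial genes were read as well. Of 4 endothelial genes 3 were called lower in A/J controls (Pecam1, Cdh5 and Tek) and all 4 with BMS493, and their sum was 859.0 to 954.4 CPM in B6 controls and 651.4 to 781.0 CPM in A/J controls. Of 2 epithelial genes Epcam was called lower in A/J controls, and Epcam and Cdh1 with BMS493. Of the 7 lung genes Sftpc, a surfactant gene of alveolar epithelium, was called lower in A/J in both comparisons, with means of 280.9 CPM in B6 controls and 81.1 CPM in A/J controls. Foxf1, a gene of lung mesenchyme, was called lower with BMS493 in B6. None of the macrophage, dendritic, leucocyte, endothelial or epithelial genes was called with BMS493 within a strain. The part of these cell types in the H2 values was not tested.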

How the data were processed

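The authors deposited 1 table of raw counts per library with 57180 genes, 4 summary lines and 3 count columns (without strand and for each strand), in the layout of STAR. FastQC, cutadapt, STAR and GRCm39 are named in the submitters' processing notes. Versions and the annotation are not given in the sources used here. The column without strand was used, since the first strand column held 50.95% to 52.05% of the stranded counts. The summary lines were left out of library sizes. Members were matched by symbol through a table of gene names, which held 51884 of the identifiers and 98.9% of the counts. Coordinates, transcripts and promoters come from GENCODE M21 (GRCm38) and RefSeq (GRCm38.p6), an older build than that of the files, so they name and place genes but were joined to no read.

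The filterByExpr function of edgeR (version 4.0.16, R 4.3.3) kept 17276 genes and removed 39904, and TMM gave the scaling. A robust quasi-likelihood model with 1 coefficient per group (12 residual degrees of freedom) was fitted to all 16 libraries. P-values were two-sided and adjusted by Benjamini-Hochberg over all genes tested, and a gene was called under 0.05. The standard error (SE) and 95% interval come from the same test. CPM uses the TMM scaling. Intervals on counts and the floor of 3 counts cover counting error alone, as PCR copies were not marked by molecular identifiers. Shared windows of 50 bases came from the transcripts of all genes, and the read length is not given in the labels.

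The members, lists and tests were chosen with earlier results of these data known. Values in every library are given for the classical class I genes, the A, E, DM and O genes and every other member with a mean of at least 1 CPM, and for B2m, Nlrc5, Ciita, Cd74 and Tap1. Members called with BMS493 would have been added, but there were none. Other genes with values or a test are from the fixed lists or are members summarised by range. H2-Q6, H2-T3, H2-T-ps, H2-M3, H2-M5 and H2-M10.2 were named with values after these were seen. The same replicate numbers in different groups do not pair the libraries. Alternatives were RLE scaling, the DESeq2 1.42.0 Wald test, no filter, a minimum mean of 1 CPM, the sum of the stranded columns, a fit to the 8 libraries of a comparison alone, a block for replicate number, a term for library set (library numbers 1 to 8 against the rest) and leaving out each library. The fit was tested on simulated data. Python 3.11.15 with pandas 2.3.3 and matplotlib 3.10.9 made the summaries and plots.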

Additional observations from a re-analysis of the deposited data

Results flagged for a closer look

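In a group of 4, a library was singled out when its distance from the nearest other library, as a share of the range of the group, was above the 95% critical value of Dixon. Chance singles out about 1 in 20 groups of normally spread values, a rate that does not hold for groups of few counts. Singled out were 9 of 78 groups (those of the named members and of the class I and class II sums, without groups of equal values), most of them at 1 to 7 counts.

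H2-K1 was high in B6 BMS493 replicate 2, at 22.2 CPM beside 14.49 to 15.8 in the others (ratio 0.8311). H2-T22 was low in A/J control replicate 2, at 1.90 CPM beside 2.78 to 2.91 (ratio 0.8661). H2-Aa was high in A/J control replicate 3 with 3 counts (ratio 0.856), and H2-Oa in B6 control replicate 3 with 7 counts (ratio 0.8807). In the remaining 5 groups 1 library held the only count (ratio 1.0): H2-Ob in B6 control replicate 4, H2-Q2 in A/J control replicate 1, and H2-Eb2 in B6 control replicate 1, B6 BMS493 replicate 1 and A/J control replicate 3.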

How the results depend on the processing

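No called member lost its call or changed direction under an alternative that tested it. With a minimum mean of 1 CPM 10 members were tested, so that the called H2-Ab1, H2-Eb1, H2-Q6, H2-T-ps and H2-T3 had no test there, and H2-Q6 had none with only the 8 libraries of controls. Of the values of single members under alternatives 8 gained a call and 1664 kept their side of the threshold. H2-Aa gained calls in controls without the filter (adjusted p = 0.0323) and without B6 control replicate 3 (0.0258), and with BMS493 without the filter (0.0285), under the replicate block (0.0290), without A/J BMS493 replicate 2 (0.0211) and without B6 BMS493 replicate 4 (0.0486). H2-K1 (0.0432) and H2-Eb1 (0.0346) gained calls in controls with only the 8 libraries compared. Counts of called members stayed at 0 with BMS493 in B6, in A/J and in the difference, and ran from 13 to 14 in controls and 14 to 15 with BMS493 when each library was left out. Of the other genes of the interval 21 were called with BMS493 with only the 8 libraries compared, where 32 were reported, and 21 to 33 when each library was left out. The antigen presentation genes called with BMS493 ran from 9 to 19. With the stranded columns summed, an alternative chosen after seeing the data, the class I sum of A/J was 45.1 CPM in controls and 40.7 CPM with BMS493, and it moved by less than the spread between libraries in B6. Leaving libraries out of the class sums was also chosen after seeing the data.

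Replicate numbers do not pair the libraries, since the 16 correlations of same-numbered libraries ran from -0.147 to 0.1445 and 1 was over 0.1. With the replicate block 0, 0, 0, 13 and 15 members were called in the 5 comparisons, in place of 0, 0, 0, 13 and 14. Calls over all genes with BMS493 were 73 in B6 and 84 in A/J. They were 148 and 145 with DESeq2, 260 and 178 without the filter, 27 and 133 with only the 8 libraries compared, and ran from 27 to 201 and 52 to 90 when each library was left out. In the difference 1 gene was called, 2 with DESeq2 and 12 without the filter. Depth limits the members with few counts, such as H2-Aa, H2-Oa, H2-Ob and the untested members.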
